A study of Mus musculus with 6 samples.

Results

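The 32 genes described here are the enzymes and transporters of glycolysis, their regulators, and genes of the hypoxia response, in the mouse breast cancer line Py2T. They were taken by symbol from a named list, which was drawn up with earlier results of these data known, and all 32 had a row among the 24454 gene rows of the table. Of these, 27 reached at least 1 CPM (reads per gene, scaled so that libraries of unlike depth can be compared) in at least 2 libraries and were tested. The glucose transporter Slc2a3, the enolase Eno2, the lactate dehydrogenase Ldhb, the lactate transporter Slc16a3 and the hormone gene Adm stayed below that level and are given by their reads only. Total RNA was sequenced in 6 libraries of 3 groups. PBS cells are the control, labelled 0 µM H2O2 and called untreated in the treatment protocol. C40 and I60 cells had been given H2O2 each day for 4 months, at 40 and 60 µM, and the PBS libraries, too, are labelled 4 months. No group carries a stated allele or transgene, and all were grown in the same serum-containing medium. Each group is 1 line with 2 libraries, called biological duplicates by the submitters, and nothing in the labels says whether the duplicates were cultured apart during treatment. The p-values therefore measure the spread between those libraries. Anything else that set the 3 lines apart cannot be told apart from the treatment.

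Glycolysis splits glucose into pyruvate in the cytosol and yields ATP without oxygen, and lactate dehydrogenase then turns pyruvate into lactate, which leaves the cell through monocarboxylate transporters. Many of its steps have several isoforms, encoded by separate genes, that differ between tissues. The hypoxia-inducible factor HIF is a dimer whose alpha subunit is hydroxylated and destroyed when oxygen is present. When it is stable it binds the hypoxia response element, whose core is ACGTG or GCGTG, at promoters of many glycolysis genes, and tumour cells often run glycolysis at a high rate also with oxygen at hand.

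The libraries held 48113692 to 60260520 counted reads, so that 1 read was worth 0.0166 to 0.0208 CPM. Scatter between libraries of a group was widest in C40: 223 genes differed over 2-fold between the replicates of PBS, 1022 between those of C40 and 217 between those of I60. The replicates of PBS stood apart on these genes: 21 of the 27 tested members were higher in PBS replicate 2 than in replicate 1, with a median difference of 0.30 on the log2 scale, against a median of -0.017 over all tested genes. The protocol calls the cells epithelial, and 10 epithelial markers summed to 7131 to 7697 CPM in PBS, 3590 to 3817 CPM in C40 and 3108 to 3166 CPM in I60. In I60 the defining adhesion gene Cdh1 had 0.187 and 0.129 CPM and Cldn7 had 0 reads, while the keratin gene Krt18 had 1443 and 1513 CPM. Krt8 had 1707 and 1574 CPM in I60, against 1264 and 1164 CPM in PBS. Krt7 had 3115 and 3024 CPM in PBS, 792 and 863 CPM in C40 and 3.28 and 3.04 CPM in I60. Cdh1 had 59.7 and 87.8 CPM in C40, so the near sums of C40 and I60 do not mean like levels of each marker. Summed mesenchymal markers (9 genes) ran from 1926 to 2504 CPM in PBS, 10092 to 13600 CPM in C40 and 6005 to 7852 CPM in I60. Of these, Fn1 had 1120 and 1725 CPM in PBS, 4870 and 10677 CPM in C40 and 958 and 2269 CPM in I60, and Vim had 40.5 and 18.8 CPM in PBS, 3055 and 2229 CPM in C40 and 3765 and 4286 CPM in I60, so that Fn1 carried the higher sum of C40 while Vim was highest in I60. The 9 fibroblast markers summed to 6.31 to 7.37 CPM in PBS, 188 to 731 CPM in C40 and 433 to 467 CPM in I60, with 3 of them at 0 reads in every library; Col3a1 had 575 and 122 CPM of this in C40 and 418 and 357 CPM in I60. The 7 immune markers summed to 4.85 to 5.13 CPM in PBS, 3.62 to 4.36 CPM in C40 and 16.3 to 28.0 CPM in I60, nearly all of it Cd68. Endothelial and adipocyte markers stayed at or below 1.23 and 0.880 CPM. The part of these marker shifts in the results that follow was not tested, and in bulk RNA fewer cells of a type and less RNA per cell cannot be told apart.

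In I60 the transporter Slc2a1, the enzymes Hk1, Gpi1, Pfkm, Pfkp, Tpi1, Pgk1 and Pgm2, and the hypoxia genes Egln3 and Bnip3 rose against PBS, by 1.75-fold to 10.0-fold, and Pfkfb4 fell. Of the 27 tested members, 10 were called higher and 1 lower in I60 than in PBS by limma (adjusted p below 0.05 over all genes tested), against 13.9% of all 11524 tested genes called higher, 13.1% called lower and 27.1% called in either direction. Their median log2 fold change was 0.75, against -0.002 over all tested genes. Both I60 libraries lay above both PBS libraries for 18 of the 27 and below them for 2, against 35.5% and 35.2% of all tested genes. In C40 against PBS, limma called 2 members higher and 3 lower, with 11.2% and 9.02% of all tested genes called in those directions (20.2% in either), and a median log2 fold change of 0.10 (all genes -0.024). The C40 libraries lay above both PBS libraries for 5 members and below them for 5, against 30.9% and 31.8% of all tested genes, so that the counts in C40 were near or below the background. Between the treated lines, 5 members were called higher and 1 lower in I60 than in C40, against 3.51% and 5.73% of all tested genes (9.23% in either direction), with a median of 0.65 (all genes 0.015). I60 lay above C40 without overlap for 20 members and below it for 2, against 24.4% of all tested genes in each direction. Together the members made up 0.955% and 1.20% of the counted reads in PBS, 1.23% and 1.09% in C40 and 1.47% in both I60 libraries. The count of 10 depended on the libraries in the fit: 2 members were called higher without PBS replicate 1, and likewise without I60 replicate 1 or I60 replicate 2, 7 without PBS replicate 2, and 15 without C40 replicate 1 or C40 replicate 2.

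**Figure D1:**
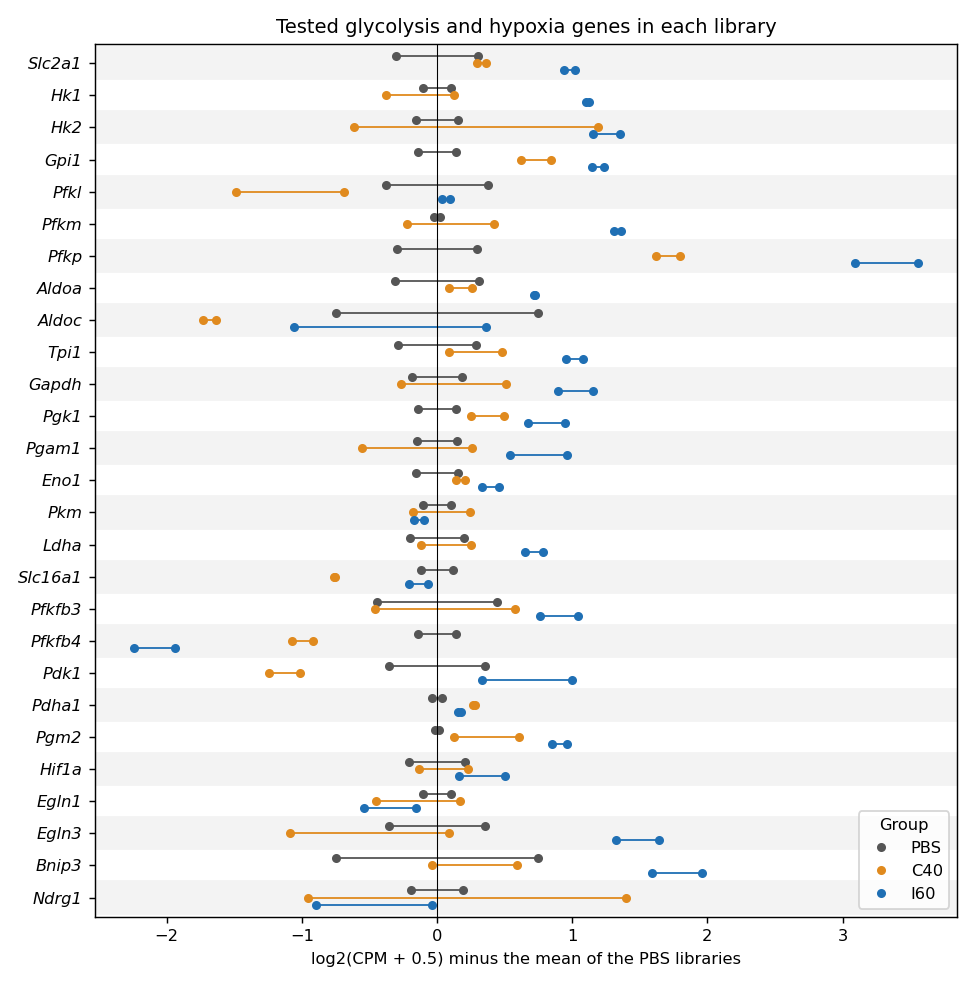
Level of the 27 tested genes in each library, as log2(CPM + 0.5) minus the mean of the PBS libraries; points are libraries, lines join the 2 libraries of a group, and the vertical line marks the PBS mean. Pfkp lies furthest to the right in I60 and Pfkfb4 furthest to the left, and Hk2 and Ndrg1 show the widest gap between the C40 libraries.

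Slc2a1 encodes GLUT1, the basal glucose transporter of most cells (mm10 chromosome 4, 119108745 to 119137330). It had 149.6 and 227 CPM in PBS, 226 and 237 CPM in C40 and 376 and 354 CPM in I60. Both I60 libraries stood above all others, and C40 overlapped PBS. Slc2a1 rose 1.97-fold in I60 against PBS (log2 fold change 0.98, SE 0.22, limma adjusted p = 0.0155). This call was lost without PBS replicate 1 (adjusted p = 0.0954), I60 replicate 1 (0.0981) or I60 replicate 2 (0.0837). Its difference in C40 against PBS was 0.33 on the log2 scale (limma adjusted p = 0.319). Slc2a3, the high-affinity transporter best known from neurons, had 4 reads in PBS, 1 read in C40 and 7 reads in I60 over both libraries, so that Slc2a1 made up over 99% of the pair in every library.

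Hexokinases trap glucose in the cell as its phosphate, Hk1 as the isoform found in most tissues and Hk2 as the isoform known to be raised in tumours. Hk1 (chromosome 10, 62268855 to 62379920) had 205 and 236 CPM in PBS, 239.7 and 169.8 CPM in C40 and 473 and 481 CPM in I60. The I60 libraries lay close together and far above the rest, and those of C40 lay on both sides of PBS. Hk1 rose 2.16-fold in I60 against PBS (log2 fold change 1.11, SE 0.20, limma adjusted p = 0.00676) and 2.36-fold in I60 against C40 (limma adjusted p = 0.0105). Leaving out an I60 library ended both calls (adjusted p of 0.0511 and 0.0578 against PBS, 0.0900 and 0.0988 against C40), as did leaving out PBS replicate 1 for that with PBS (0.0728). Hk2 had 106 and 132 CPM in PBS, 77.4 and 271 CPM in C40 and 265 and 304 CPM in I60. The C40 libraries were far apart, one below PBS and the other within I60. The log2 fold change of Hk2 was 1.25 in I60 against PBS (SE 0.51, limma adjusted p = 0.117), which did not pass. It passed without C40 replicate 1 (adjusted p = 0.00112) or C40 replicate 2 (0.00111). Per kilobase of exon, Hk1 made up 57.5% and 55.6% of the hexokinase pair in PBS, 68.4% and 30.5% in C40 and 55.6% and 52.5% in I60, and the I60 range overlapped that of PBS. Summed per kilobase, the pair had 41.9 and 49.9 CPM per kilobase in PBS, 41.1 and 65.3 in C40 and 99.8 and 107 in I60.

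Gpi1 (glucose phosphate isomerase, the next enzyme; chromosome 7, 34201327 to 34230336) was called in both treated lines. It had 385 and 467 CPM in PBS, 763 and 651 CPM in C40 and 941 and 1000.4 CPM in I60. The 3 groups did not overlap, in the order of dose. Gpi1 rose 2.29-fold in I60 against PBS (log2 fold change 1.19, SE 0.18, limma adjusted p = 0.00287), a call kept under every alternative run, with adjusted p from 3.97e-07 to 0.0405. In C40 it rose 1.66-fold against PBS (log2 fold change 0.73, SE 0.18, limma adjusted p = 0.0279), and this call was lost without PBS replicate 1 (adjusted p = 0.227), PBS replicate 2 (0.0770), C40 replicate 1 (0.0517), I60 replicate 1 (0.0636) or I60 replicate 2 (0.0622). I60 and C40 differed by 0.46 on the log2 scale (limma adjusted p = 0.184).

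Phosphofructokinase commits the sugar to glycolysis. Its subunits come from 3 genes named for liver (Pfkl), muscle (Pfkm) and platelet (Pfkp), which assemble into tetramers. The promoter stretches of the isoform with the largest rise and of the one that was most abundant in PBS show what lies just upstream of each. The letters are those of RefSeq promoter windows (build GRCm38.p6, also named mm10), 5′ to 3′ in the direction of the gene, with bases of annotated exons left out and HIF cores in capitals (ACGTG and GCGTG, or CACGT and CACGC where the core lies on the other strand). The Pfkp stretch is chr13:6648778-6649021, minus strand, and the Pfkl stretch is chr10:78009808-78010004, minus strand.
Pfkp: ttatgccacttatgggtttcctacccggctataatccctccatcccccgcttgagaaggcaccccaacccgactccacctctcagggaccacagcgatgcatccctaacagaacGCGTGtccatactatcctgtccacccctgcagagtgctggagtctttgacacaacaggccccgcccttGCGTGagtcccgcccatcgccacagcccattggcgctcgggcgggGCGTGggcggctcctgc
Pfkl: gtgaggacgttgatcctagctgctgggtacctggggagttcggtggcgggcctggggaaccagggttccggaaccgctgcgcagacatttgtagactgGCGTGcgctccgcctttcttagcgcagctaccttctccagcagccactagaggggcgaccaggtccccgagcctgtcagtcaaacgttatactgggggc
The Pfkp stretch holds 3 cores, all of them GCGTG, and that of Pfkl holds 1.

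Pfkp (chromosome 13, 6579874 to 6649060) had 34.0 and 51.5 CPM in PBS, 129.7 and 147 CPM in C40 and 361 and 499 CPM in I60. The 3 groups were well apart, each above the one of lower dose. Pfkp rose 10.0-fold in I60 against PBS (log2 fold change 3.33, SE 0.25, limma adjusted p = 0.000131) and 3.27-fold in C40 against PBS (log2 fold change 1.71, SE 0.25, limma adjusted p = 0.00401). Both calls held under every alternative run, with adjusted p of at most 0.00354 and 0.0376. It was also 3.07-fold higher in I60 than in C40 (limma adjusted p = 0.00906), a call lost without I60 replicate 2 (adjusted p = 0.0956). Of the 81-base windows in its transcripts, 14.6% are also found in the neighbouring gene Pitrm1, whose row had 202 and 224 CPM in PBS, 238 and 300.4 CPM in C40 and 222 and 284 CPM in I60. The 2 tested genes that start within 1 Mb of Pfkp had a median log2 fold change of -0.25 in I60 against PBS.

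Pfkm (chromosome 15, 98092589 to 98132447) had 30.4 and 31.5 CPM in PBS, 41.6 and 26.5 CPM in C40 and 80.4 and 77.3 CPM in I60. C40 lay on both sides of PBS, and I60 stood above both. Pfkm rose 2.52-fold in I60 against PBS (log2 fold change 1.34, SE 0.24, limma adjusted p = 0.00676) and 2.35-fold in I60 against C40 (limma adjusted p = 0.0211). Without any 1 of the PBS or I60 libraries both calls were lost, with adjusted p of 0.0509 to 0.0630 for the comparison with PBS and 0.0653 to 0.164 for that with C40. Pfkl (chromosome 10, 77986947 to 78009807) had 313 and 526 CPM in PBS, 251 and 145 CPM in C40 and 417 and 435 CPM in I60. I60 lay within the range of PBS and C40 lay below both. The log2 fold change of Pfkl was 0.069 in I60 against PBS (SE 0.33, limma adjusted p = 0.897) and -1.09 in C40 against PBS (SE 0.33, limma adjusted p = 0.0567), neither past the threshold. The second passed without C40 replicate 1 (adjusted p = 0.0103).

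The 3 isoforms differed in their shares of phosphofructokinase RNA. Per kilobase of exon, Pfkp made up 4.33% and 4.17% in PBS, 16.2% and 27.0% in C40 and 23.7% and 29.7% in I60. Pfkl made up 80.1% and 85.6% in PBS, 63.0% and 53.4% in C40 and 55.0% and 51.9% in I60, and was the most abundant subunit in every library on this scale. Pfkm was at 15.6% and 10.2% in PBS, 20.8% and 19.6% in C40 and 21.2% and 18.4% in I60. The shares depend on the lengths used: in plain CPM, Pfkp made up 8.998% and 8.46% in PBS, 30.7% and 46.2% in C40 and 42.0% and 49.4% in I60, and in replicate 2 of C40 and of I60 it then exceeded Pfkl (45.5% and 43.0%). The log2 ratio of Pfkp to Pfkl was 3.26 higher in I60 than in PBS and 2.80 higher in C40 than in PBS, without overlap. Of 11 isoform pairs, 7 had both genes tested, which gave 21 comparisons of a ratio between groups. An exact two-sided permutation test of 2 against 2 libraries cannot go below p = 0.3333, and the smallest adjusted p over the 21 was 0.583, so no ratio could pass.

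**Figure D2:**
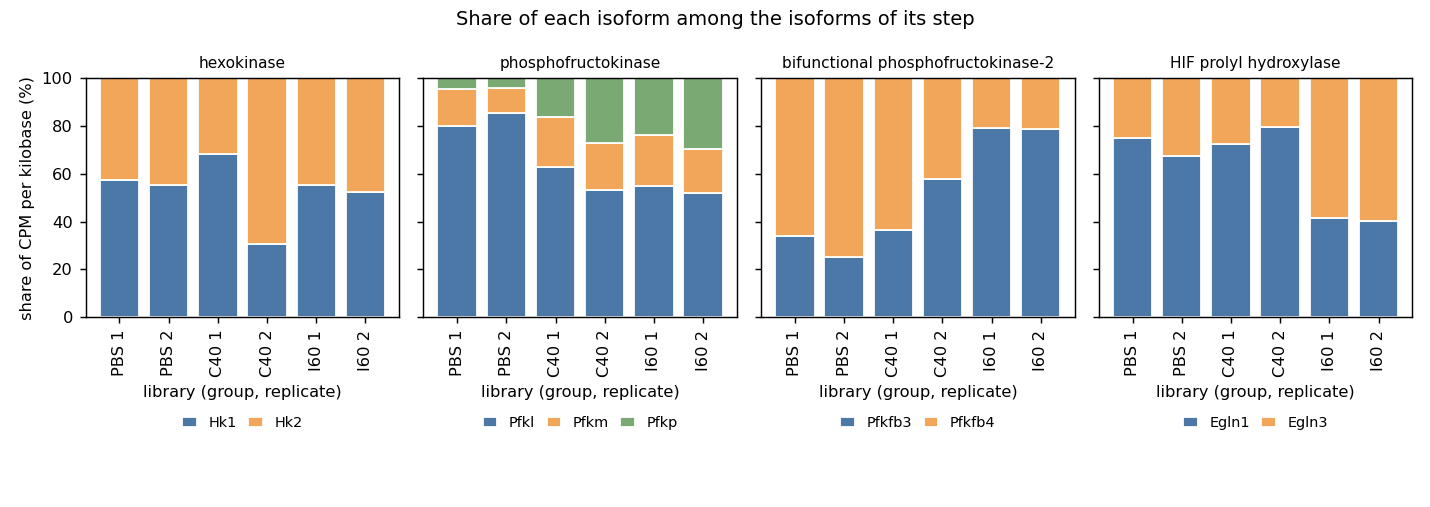
Share of each isoform among the member isoforms of its step, in percent of CPM per kilobase of exon, one bar per library, for hexokinase, phosphofructokinase, the Pfkfb enzymes and the HIF prolyl hydroxylases. Pfkfb1, Pfkfb2 and Egln2 are not members and are left out of the shares. The Pfkp segment is thin in PBS (4.33% and 4.17%) and wider in both treated lines, the Pfkfb4 segment is smallest in I60, and the Egln3 segment is largest in I60.

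The bifunctional enzymes of the Pfkfb family make and remove the sugar bisphosphate that activates phosphofructokinase. Pfkfb3, whose kinase activity predominates, had 14.5 and 7.62 CPM in PBS, 7.5 and 16.0 CPM in C40 and 18.2 and 22.2 CPM in I60, and passed in no comparison (log2 fold change 0.90 in I60 against PBS, SE 0.43, limma adjusted p = 0.167). Pfkfb4 (chromosome 9, 108988272 to 109032236) had 18.0 and 14.7 CPM in PBS, 8.40 and 7.47 CPM in C40 and 3.05 and 3.87 CPM in I60. It was the only tested member called lower in I60 than in PBS, and its groups did not overlap. Pfkfb4 fell by 2.09 on the log2 scale in I60 against PBS (4.26-fold, SE 0.25, limma adjusted p = 0.0010), which held under every alternative run with adjusted p up to 0.0172. In C40 against PBS it fell by 1.0 (SE 0.25, limma adjusted p = 0.0314). That call was lost without PBS replicate 1 (adjusted p = 0.219), PBS replicate 2 (0.0940), C40 replicate 2 (0.0755), I60 replicate 1 (0.0605) or I60 replicate 2 (0.0608). I60 was also below C40, by 1.10 on the log2 scale (limma adjusted p = 0.0377), but leaving out any 1 of the 6 libraries ended this call, with adjusted p of 0.0521 to 0.239. Per kilobase, Pfkfb4 made up 65.9% and 75% of the pair in PBS, 63.4% and 42.0% in C40 and 20.7% and 21.3% in I60. The pair is not the whole family. Pfkfb2, not a member, stood above both in every group, with means of 13.6 CPM per kilobase in PBS, 4.36 in C40 and 5.13 in I60.

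After the phosphofructokinase step the sugar is split, and of the enzymes from there on Tpi1 and Pgk1 passed in I60 against PBS. The triose isomerase Tpi1 (chromosome 6, 124810586 to 124814158) had 529 and 789 CPM in PBS, 904 and 688 CPM in C40 and 1251 and 1367 CPM in I60. I60 stood above the other groups, which overlapped. Tpi1 rose 2.02-fold in I60 against PBS (log2 fold change 1.02, SE 0.24, limma adjusted p = 0.0208), which did not hold without PBS replicate 1 (adjusted p = 0.161), I60 replicate 1 (0.0907) or I60 replicate 2 (0.127). Aldoa, the main aldolase, had 829 and 1279 CPM in PBS, 1234 and 1098 CPM in C40 and 1693 and 1705 CPM in I60. Both I60 libraries were above all others, with a log2 fold change of 0.72 against PBS (SE 0.23) that missed the threshold (limma adjusted p = 0.0598). It passed without PBS replicate 2 (adjusted p = 0.0437), C40 replicate 1 (0.0421) or C40 replicate 2 (0.0407). Its isoform Aldoc, known from brain, had 3.9 and 11.8 CPM in PBS, 1.73 and 1.88 CPM in C40 and 3.03 and 8.99 CPM in I60, and Aldoa made up over 99% of the pair in every library.

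Phosphoglycerate kinase, Pgk1, makes ATP (chromosome X, 106187100 to 106203699). Lactate dehydrogenase, whose main subunit here was Ldha (chromosome 7, 46842274 to 46855627), ends the pathway. Both are textbook HIF targets, and their upstream stretches are shown because ACGTG cores lie in them at short spacing; capitals mark cores as above, and CACGTG holds a core on each strand. The Pgk1 stretch is chrX:106186850-106187099, plus strand, and the Ldha stretch is chr7:46845554-46845803, plus strand.
Pgk1: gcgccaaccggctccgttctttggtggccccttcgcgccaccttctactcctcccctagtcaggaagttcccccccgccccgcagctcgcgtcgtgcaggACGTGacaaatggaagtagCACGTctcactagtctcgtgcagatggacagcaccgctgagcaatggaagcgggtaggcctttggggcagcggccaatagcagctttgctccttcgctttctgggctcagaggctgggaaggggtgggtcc
Ldha: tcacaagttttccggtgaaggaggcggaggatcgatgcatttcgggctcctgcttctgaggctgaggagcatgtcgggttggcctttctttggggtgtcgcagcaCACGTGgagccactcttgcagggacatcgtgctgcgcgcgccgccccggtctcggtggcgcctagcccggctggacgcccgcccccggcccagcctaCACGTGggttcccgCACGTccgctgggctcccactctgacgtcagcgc
The Pgk1 stretch holds 2 cores and the Ldha stretch 5, counted once per strand. Of the promoter windows of Ldha, the one with the most cores is shown. Another (chr7:46846832-46847131) holds 2 GCGTG and no ACGTG. Bases just after the start of the shown Ldha window were not found in a GENCODE transcript of the gene, while those of the other window were.

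Pgk1 had 55.9 and 68.3 CPM in PBS, 73.6 and 87.6 CPM in C40 and 98.8 and 119.9 CPM in I60. The 3 groups did not overlap. Pgk1 rose 1.75-fold in I60 against PBS (log2 fold change 0.81, SE 0.20, limma adjusted p = 0.0226), and the call was lost without PBS replicate 1 (adjusted p = 0.166), PBS replicate 2 (0.0622), I60 replicate 1 (0.0613) or I60 replicate 2 (0.149). Of its 81-base windows, 67.4% are shared with other genes. Ldha had 1643 and 2167 CPM in PBS, 2249.7 and 1741 CPM in C40 and 3252 and 2956 CPM in I60. I60 was above both other groups, which overlapped. The log2 fold change of Ldha was 0.72 in I60 against PBS (SE 0.23) and missed the threshold (limma adjusted p = 0.0555). It passed without C40 replicate 1 (adjusted p = 0.0298) or C40 replicate 2 (0.0288). Ldhb, the subunit best known from heart, had 12 reads in PBS, 1 in C40 and 2 in I60, and Ldha made up over 99% of the pair everywhere.

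Pkm, pyruvate kinase, had the highest CPM of the members. It had 3752 and 4353 CPM in PBS, 4786 and 3571 CPM in C40 and 3788 and 3583 CPM in I60. All 3 groups overlapped, and the log2 fold change in I60 against PBS was -0.13 (SE 0.23, limma adjusted p = 0.698). The table has 1 row for Pkm, so its muscle-type and embryonic-type splice forms were not separated. The enolase Eno1 had 236 and 292 CPM in PBS, 302 and 289.8 CPM in C40 and 360.2 and 330.4 CPM in I60. It did not pass (log2 fold change 0.39 in I60 against PBS, SE 0.17, limma adjusted p = 0.128). Eno1 was not the most abundant enolase per kilobase of exon. The muscle enolase Eno3, not a member, had means of 76.9 CPM per kilobase in PBS, 253 in C40 and 327 in I60. Those of Eno1 were 49.1, 55.1 and 64.2. The order in PBS depends on the lengths used: in plain CPM the PBS means were 264 for Eno1 and 134 for Eno3. In C40 and I60, Eno3 was higher than Eno1 also in plain CPM. A further enolase row, Eno1b, had means of 229 CPM per kilobase in PBS, 256 in C40 and 298 in I60, above Eno3 in PBS and C40. Of the sequence windows of Eno1b, 68.2% are shared with Eno1, so the level of each is uncertain. The neuronal enolase Eno2 was rare, with 39 reads in PBS, 91 in C40 and 2 in I60. Scaled to depth, the ratio of its pooled reads was 2.67 in C40 against PBS (exact 95% interval 1.82 to 4.00), 0.0559 in I60 against PBS (0.00654 to 0.216) and 0.0209 in I60 against C40 (0.00250 to 0.0778). These intervals cover counting error only. Pgam1 (phosphoglycerate mutase) had 32.4 and 40.1 CPM in PBS, 43.3 and 24.4 CPM in C40 and 70.7 and 52.6 CPM in I60 (log2 fold change 0.75 in I60 against PBS, SE 0.31, limma adjusted p = 0.119). Without C40 replicate 1 or C40 replicate 2 the adjusted p was 0.0318 or 0.0298.

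Gapdh, usually among the most abundant transcripts of a cell, stood at 2.87 and 2.11 CPM in PBS, 3.72 and 1.97 CPM in C40 and 6.11 and 5.01 CPM in I60. I60 was above the other groups (log2 fold change 1.03 against PBS, SE 0.33, limma adjusted p = 0.0580), and the call was made without C40 replicate 1 (adjusted p = 0.0173) or C40 replicate 2 (0.0175). Per kilobase of exon its mean level was 0.602 CPM in PBS, 0.688 CPM in C40 and 1.34 CPM in I60, while Tpi1, the step before it, had 239 CPM per kilobase in PBS, 289 in C40 and 476 in I60. In GENCODE transcripts, 54.9% of the 81-base windows of Gapdh, the length of the reads, are found in at least 1 of 108 other genes, 102 of them pseudogenes. The shared part was also large for Pgk1 (67.4%), 43.1% for Eno1, 40.5% for Bnip3 and 40.4% for Pgam1, and 2.29% or less for Aldoa, Tpi1 and Ldha. Nearly all of the Eno1 overlap was with Eno1b, whose own row had 377 and 483 CPM in PBS, 491 and 470.4 CPM in C40 and 588 and 529 CPM in I60. No source at hand states how the authors counted reads that match several genes, so the levels of these 5 genes are uncertain, and the part of shared sequence in them was not tested.

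**Figure D3:**
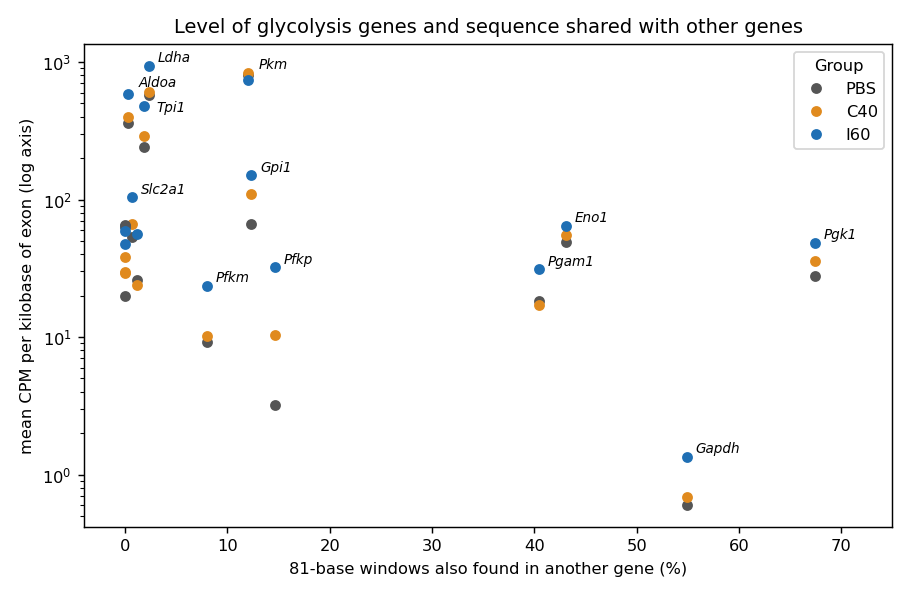
Mean CPM per kilobase of exon (log axis) of 16 glycolysis genes against the percent of their 81-base windows also found in another gene, with 1 point per group of 2 libraries; Hk1, Hk2, Pfkl and Slc16a1 lie unlabelled near 0%. Gapdh lies far below the other genes, at 54.9% of windows shared.

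Downstream of pyruvate, Slc16a1 and Pdk1 fell in C40 against PBS. Slc16a1 encodes MCT1, which carries lactate and pyruvate with a proton (chromosome 3, 104638664 to 104658462). It had 311 and 265 CPM in PBS, 169 and 169.9 CPM in C40 and 274 and 249 CPM in I60. C40 was below both other groups, and I60 overlapped PBS. Slc16a1 fell by 0.76 on the log2 scale in C40 against PBS (1.69-fold, SE 0.16, limma adjusted p = 0.0161), which did not hold without PBS replicate 1 (adjusted p = 0.144) or PBS replicate 2 (0.0570). I60 was 0.62 above C40 (limma adjusted p = 0.0581). The lactate exporter Slc16a3 had 3 reads in PBS, 0 in C40 and 0 in I60.

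Pdk1, which phosphorylates pyruvate dehydrogenase and so slows the use of pyruvate in mitochondria, lies on chromosome 2, 71873215 to 71903858. It had 29.2 and 48.2 CPM in PBS, 18.3 and 15.6 CPM in C40 and 47.4 and 75.4 CPM in I60. C40 was the lowest group and I60 overlapped PBS at its lower end. Pdk1 fell by 1.13 on the log2 scale in C40 against PBS (2.19-fold, SE 0.32, limma adjusted p = 0.0494), a borderline call that was lost without PBS replicate 1 (adjusted p = 0.0726), PBS replicate 2 (0.236), C40 replicate 2 (0.108), I60 replicate 1 (0.0675) or I60 replicate 2 (0.0686), and with a pseudocount of 1 (0.0517) or only the 4 libraries of the comparison (0.0707). It was 3.47-fold higher in I60 than in C40 (log2 fold change 1.79, SE 0.32, limma adjusted p = 0.0160), lost only without I60 replicate 2 (adjusted p = 0.135). Pdha1, a catalytic subunit of pyruvate dehydrogenase, had 272 and 258 CPM in PBS, 319 and 322 CPM in C40 and 299.9 and 295 CPM in I60, and passed in no comparison.

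Pgm2 is a phosphoglucomutase family gene whose symbol was exchanged with that of Pgm1 in older mouse annotation. The row used has gene ID 66681 and lies on chromosome 5, 64092919 to 64128355. It had 36.9 and 37.8 CPM in PBS, 40.9 and 57.2 CPM in C40 and 67.9 and 73.3 CPM in I60, with no overlap between groups. Pgm2 rose 1.88-fold in I60 against PBS (log2 fold change 0.91, SE 0.21, limma adjusted p = 0.0190), and this call was lost without any 1 of the PBS or I60 libraries (adjusted p of 0.0858 to 0.122). The gene now named Pgm1 (ID 72157) had 162 and 178 CPM in I60, against 74.0 and 99.2 CPM in PBS, and rose 1.98-fold (limma adjusted p = 0.0275).

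Among the hypoxia genes, Hif1a itself, the oxygen-regulated subunit of HIF, had 103 and 77.2 CPM in PBS, 81.1 and 105 CPM in C40 and 99.99 and 126 CPM in I60. Its groups overlapped throughout, and its log2 fold change in I60 against PBS was 0.33 (SE 0.23, limma adjusted p = 0.323). HIF is controlled mainly through the stability of this protein, which these data do not measure. Upstream stretches of its feedback target Egln3 and of its target Bnip3 are shown because these are the members of the hypoxia response that were called; capitals mark cores as above. The Egln3 stretch is chr12:54203875-54204124, minus strand, and the Bnip3 stretch is chr7:138909520-138909756, minus strand.
Egln3: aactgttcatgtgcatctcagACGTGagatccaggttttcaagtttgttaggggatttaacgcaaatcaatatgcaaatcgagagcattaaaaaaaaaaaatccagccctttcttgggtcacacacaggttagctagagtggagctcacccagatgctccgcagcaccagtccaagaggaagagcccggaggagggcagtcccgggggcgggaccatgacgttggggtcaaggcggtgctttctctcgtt
Bnip3: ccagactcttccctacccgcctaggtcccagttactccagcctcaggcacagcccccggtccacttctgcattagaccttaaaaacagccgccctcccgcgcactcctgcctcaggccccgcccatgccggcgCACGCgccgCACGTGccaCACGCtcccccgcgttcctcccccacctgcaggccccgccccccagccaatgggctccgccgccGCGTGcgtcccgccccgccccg
The Egln3 stretch holds 1 core and the Bnip3 stretch 5. Bases just after the start of the Egln3 window were not found in a GENCODE transcript of that gene.

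The prolyl hydroxylases Egln1 and Egln3 mark the HIF alpha subunit for destruction. Egln3 (chromosome 12, 54178981 to 54203874) had 23.9 and 39.4 CPM in PBS, 32.7 and 14.1 CPM in C40 and 97.0 and 77.4 CPM in I60. I60 was far above both other groups. Egln3 rose 2.79-fold in I60 against PBS (log2 fold change 1.48, SE 0.42, limma adjusted p = 0.0384) and 3.95-fold in I60 against C40 (log2 fold change 1.98, SE 0.42, limma adjusted p = 0.0285). Leaving out any 1 of the PBS or I60 libraries ended both calls, with adjusted p of 0.0733 to 0.239 and of 0.0585 to 0.217. Egln1 had 96.1 and 111 CPM in PBS, 116 and 75.3 CPM in C40 and 92.6 and 70.8 CPM in I60, and passed in no comparison. Per kilobase, Egln3 made up 25.1% and 32.4% of the pair in PBS, 27.5% and 20.2% in C40 and 58.6% and 59.6% in I60. These shares leave out the further prolyl hydroxylase Egln2, not a member, with means of 27.7 CPM per kilobase in PBS, 37.1 in C40 and 29.9 in I60.

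Bnip3, a mitochondrial receptor for mitophagy (chromosome 7, 138890836 to 138909506), had 3.19 and 9.92 CPM in PBS, 8.83 and 5.54 CPM in C40 and 18.2 and 23.6 CPM in I60. The PBS libraries were far apart, and I60 lay above both other groups. Bnip3 rose 3.43-fold in I60 against PBS (log2 fold change 1.78, SE 0.50, limma adjusted p = 0.0375), and the call was lost without PBS replicate 1 (adjusted p = 0.181), I60 replicate 1 (0.122) or I60 replicate 2 (0.197), and on recovered reads with edgeR (0.0516). Other genes share 40.5% of its 81-base windows. Ndrg1, a stress-responsive gene often used as a hypoxia marker, had 332 and 434 CPM in PBS, 195 and 999 CPM in C40 and 203 and 369 CPM in I60. The C40 libraries differed more than any groups did, and no comparison passed. Adm (adrenomedullin, a vasodilator peptide) had 53 and 93 reads in PBS, 3 and 0 in C40 and 1 and 0 in I60. Scaled to depth, the ratio of its pooled reads was 0.0235 in C40 against PBS (exact 95% interval 0.00480 to 0.0702) and 0.00747 in I60 against PBS (0.000188 to 0.0423). These intervals, too, cover counting error only and not the spread between libraries.

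HIF cores were counted in RefSeq promoter windows of 300 bases (250 before to 50 after a start), which were at hand for 30 of the 32 members, in 43 windows. ACGTG, on either strand, was in 51.2% of these windows, against 19.6% of all mouse promoter windows and 25.8% of those of tested genes. GCGTG was in 55.8%, against 32.4% and 51.8%, and either core in 81.4%, against 43.8% and 63.2%. The palindrome CACGTG holds an ACGTG on each strand. The shares describe letters in these windows, and several members are known HIF targets. Cores were present in members that were called in I60 and in members that were not. The windows of Ldha and Slc16a1 hold them, while those of Gpi1 and Tpi1, both called higher in I60, hold neither core.

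Members were next set beside their neighbours on the chromosome, which were taken by position alone, so that those of Tpi1 include Gapdh. Within 1 Mb of Slc2a1 there were 20 tested genes, of which 4 were called higher and 4 lower in I60 than in PBS, with a median log2 fold change of 0.29. Hk1 had 20 such neighbours, of which 3 were called higher and 1 lower (median 0.16). Around Pfkm, 4 of 28 were called higher and 2 lower (median 0.30), and around Tpi1, 7 of 32 were called higher and 3 lower (median 0.29). Of all tested genes, 13.9% were called higher and 13.1% lower in this comparison. The members' own log2 fold changes in I60 (0.98 for Slc2a1, 1.11 for Hk1, 1.34 for Pfkm and 1.02 for Tpi1) were larger than these medians, which is a description of single genes without a test. These members were taken from those called higher in I60, so larger values follow from that choice. Not every member stood above its neighbours: Hif1a had 0.33 beside a median of 0.65.

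Other genes of the same pathways were called in I60 against PBS no more often than all genes tested. In 5 further lists, 68 of 95 genes were tested, and 8 were called higher and 5 lower in I60 than in PBS, against 13.9% and 13.1% of all tested genes, so that both counts were below the background. In C40 against PBS, 6 rose and 9 fell (all tested genes 11.2% and 9.02%), and 4 were higher and 2 lower in I60 than in C40 (3.51% and 5.73%). The median log2 fold change in I60 against PBS was 0.14. Of 15 other glycolysis genes, 3 were higher and 2 lower in I60 than in PBS. Eno3, the muscle enolase, had 119 and 149 CPM in PBS, 441 and 441 CPM in C40 and 538 and 600.1 CPM in I60. It rose 4.27-fold in I60 (limma adjusted p = 0.000177) and 3.31-fold in C40 against PBS (limma adjusted p = 0.000771). Slc2a6, a lysosomal glucose transporter family member, rose 3.35-fold in I60 and 4.92-fold in C40 against PBS (limma adjusted p = 0.0147 and 0.00642). Pfkfb2, the family member best known from heart, fell by 1.39 on the log2 scale in I60 and by 1.61 in C40 (limma adjusted p = 0.00460 and 0.00337), and Pgm3 fell by 0.74 in I60 (0.0370). Ldhd fell by 1.81 in C40 (limma adjusted p = 0.00399). Pgm3 and Ldhd were named after their values were seen.

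Of 11 genes of pyruvate entry to mitochondria, pyruvate carboxylase Pcx rose 2.79-fold in I60 against PBS (limma adjusted p = 0.0127), the phosphatase Pdp2, which reactivates pyruvate dehydrogenase, fell by 1.30 on the log2 scale in C40 against PBS (0.0424), and Dlat was lower in I60 than in C40 by 0.63 (0.0432). Of 6 tested glycogen genes, Ugp2 fell by 0.91 in I60 against PBS (limma adjusted p = 0.0337) and the branching enzyme Gbe1 was 2.22-fold higher in I60 than in C40 (0.0469). Among 10 regulators of HIF, Epas1, which encodes another HIF alpha subunit, had 45.9 and 50.6 CPM in PBS, 14.1 and 2.43 CPM in C40 and 13.0 and 12.2 CPM in I60. It fell by 2.90 in C40 against PBS (limma adjusted p = 0.0225). Cited2, a HIF inhibitor, fell by 0.87 in I60 against PBS (limma adjusted p = 0.00691).

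Of the 26 other tested HIF targets, 4 were higher and 1 was lower in I60 than in PBS, against 13.9% and 13.1% of all tested genes, so that the first count was near the background and the second below it. In C40 against PBS, 4 rose and 5 fell (all tested genes 11.2% and 9.02%). Those that rose in both lines included the collagen lysyl hydroxylases Plod1 (3.08-fold in I60 and 2.48-fold in C40) and Plod2 (3.8-fold in I60 and 2.76-fold in C40), with limma adjusted p of at most 0.00625. P4ha1, a collagen prolyl hydroxylase, rose 2.90-fold in I60 (limma adjusted p = 0.00347). The carbonic anhydrase Car12 fell by 0.86 on the log2 scale in I60 and by 2.09 in C40 (limma adjusted p = 0.0297 and 0.00107), and Car9 fell by 2.31 in C40 (0.0270). Tfrc, the transferrin receptor, fell by 2.00 in C40 (limma adjusted p = 0.0245). Vegfa had 36.8 and 105 CPM in PBS, 35.9 and 209 CPM in C40 and 22.2 and 88.3 CPM in I60. Ddit4 had 91.2 and 405 CPM in PBS, 174 and 270.3 CPM in C40 and 215 and 386 CPM in I60. Both, named after their values were seen, were higher in replicate 2 of every group and passed in no comparison.

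**Figure D4:**
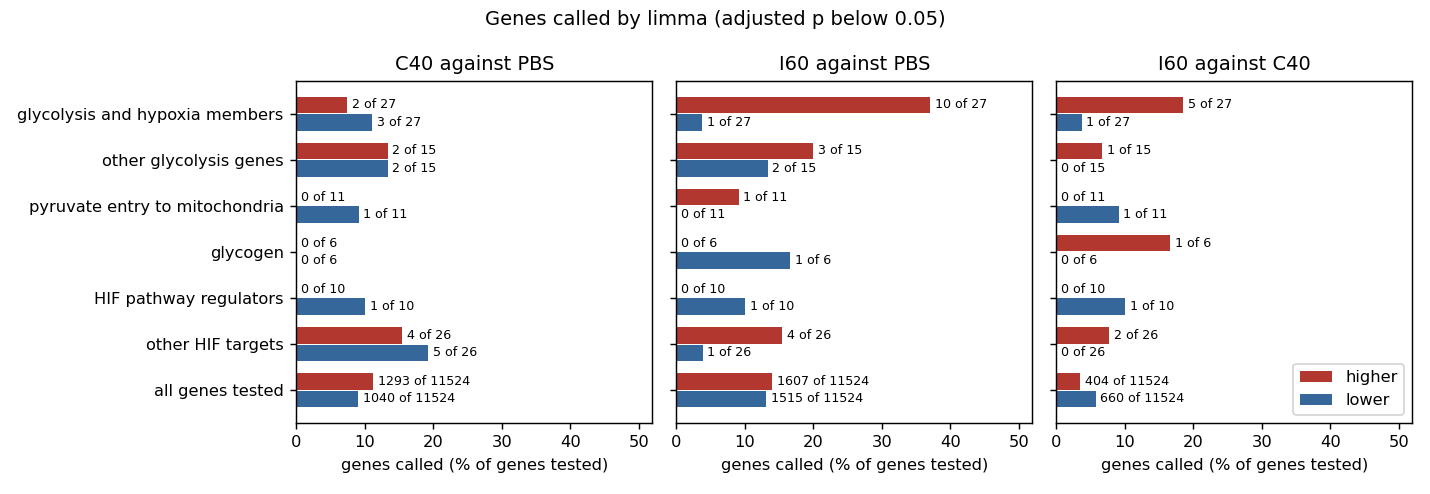
Percent of tested genes called higher or lower by limma (adjusted p below 0.05) in each comparison, for the 27 tested glycolysis and hypoxia genes, 5 lists of other genes of these pathways and all genes tested; counts stand beside the bars. The bar of 10 of 27 members higher in I60 than in PBS is the longest.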

How the data were processed

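RNA of 6 Py2T libraries, 2 each of PBS, C40 and I60, was depleted of ribosomal RNA and read as single reads of 81 bases, per the labels. Their protocol names 2 depletion kits in the same text for all libraries, not which library had which, so a part of the kit in the differences was not tested. STAR and the build mm10 were used, per the submitters' processing notes. No source at hand names the read counter, gene models or strandedness of the counts. The deposited table holds CPM as the authors computed them, 1 row per Entrez gene. Every value divided by its library's smallest step gave a whole number within 0.01 (100% of values), so whole reads were recovered for the count tools. RefSeq (GRCm38.p6) gave symbols for 24374 of 24454 rows.

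A gene entered the test when 2 or more libraries reached 1 CPM, which 11524 did. The values log2(CPM + 0.5) went into limma 3.58.1 (R 4.3.3) with its trend option, as 1 two-sided model of the 6 libraries that leaves 3 residual degrees of freedom. P-values were adjusted over these genes by Benjamini-Hochberg. Fold changes are on that log scale. All 3 comparisons share libraries: those with PBS share its 2 libraries, and I60 against C40 tests whether the 2 lines differ from PBS alike. Alternatives were other pseudocounts (0.1 and 1), no filter, TMM-scaled CPM, a replicate block, each library left out, and edgeR 4.0.16 and DESeq2 1.42.0 on recovered reads. A fit of only the 4 libraries of a comparison was added after the data were seen. The limma script was tested on simulated reads. Levels per kilobase use the union of GENCODE exons. The members and lists were chosen with earlier results of these data known. All 32 members are named, and of each other list, per comparison, up to 4 called genes with the largest change and at least 5 CPM in the higher group; Pgm3, Ldhd, Vegfa and Ddit4 lie outside this rule. For 1 gene that this rule names, values are not reported here; it stays in the counts.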

Additional observations from a re-analysis of the deposited data

Results flagged for a closer look

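The difference from PBS was not the same in I60 as in C40 for 12 genes, as tested by I60 against C40 in the limma model of all 6 libraries; I60 was higher in both libraries than C40 in both, or lower in both, for each. The difference in log2 fold change, I60 minus C40, was 1.98 for Egln3 (1.48 in I60 and -0.50 in C40, each against PBS), 1.79 for Pdk1 (0.67 and -1.13), 1.62 for Pfkp (3.33 and 1.71), 1.24 for Hk1 (1.11 and -0.13), 1.23 for Pfkm (1.34 and 0.10) and -1.10 for Pfkfb4 (-2.09 and -1.0). The limma adjusted p was between 0.00906 and 0.0377 for these 6.

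Of the other genes of the pathways, the difference was 1.36 for Ldhd (-0.46 in I60 and -1.81 in C40), 1.28 for P4ha1 (1.53 and 0.26), 1.23 for Car12 (-0.86 and -2.09), 1.15 for Gbe1 (0.63 and -0.52), -0.63 for Dlat (-0.30 and 0.33) and -0.94 for Cited2 (-0.87 and 0.07). Their limma adjusted p was between 0.0121 and 0.0469.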

How the results depend on the processing

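With 2 libraries a group, most counts moved when 1 library was left out. In I60 against PBS, 2 to 15 members were called higher (10 with all libraries) and 1 lower; among other genes of the pathways 5 to 10 were higher and 1 to 12 lower, and among all genes 756 to 2120 higher and 740 to 2070 lower. In C40 against PBS, 1 to 3 members were higher and 0 to 5 lower, 3 to 9 and 3 to 15 of the other genes, and 549 to 1717 and 425 to 1750 of all genes. In I60 against C40, 0 to 8 members were higher and 0 to 1 lower, 0 to 9 and 0 to 4 of the other genes, and 140 to 832 and 249 to 937 of all genes.

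Without a filter, 1 member was higher in C40 and 2 lower in I60 than in PBS, 0 were lower in I60 than in C40, 5 other genes were lower in C40, and 2 higher in I60 than in C40. It also ended calls of Tpi1 (adjusted p = 0.0565), Egln3 (0.0821) and Bnip3 (0.0871) in I60 against PBS, of Egln3 (0.0753) and Pfkfb4 (0.0911) in I60 against C40, and against PBS of Gpi1 in C40 (0.0612), Pfkfb4 in C40 (0.0718) and Pdk1 in C40 (0.0901). DESeq2 called 5 members lower in C40 against PBS and 8 higher in I60 against C40, 11 other genes lower in I60 against PBS and 8 higher in I60 against C40, and 1064 of all genes lower in I60 against C40. In I60 against PBS, DESeq2 added Hk2 (adjusted p = 0.0387), Aldoa (0.0420), Gapdh (0.0323) and Ldha (0.0220) as higher. edgeR called 8 other genes lower in I60. TMM scaling left 1 other gene lower in I60 against C40, and called Gapdh higher in I60 than in PBS (limma adjusted p = 0.0486). With the replicate block, 11 other genes were lower in I60 against PBS and 12 members higher, Hk2 (adjusted p = 0.0429) and Gapdh (0.0266) being added; Aldoc was then called lower in C40 against PBS (0.0214) and Slc16a1 higher in I60 than in C40 (0.0489), and no other member's call changed. Same-numbered libraries deviated together in each pair of groups (r 0.154 for C40 and PBS, 0.105 for I60 and PBS, 0.438 for I60 and C40), but with 2 numbers and no label that ties them to a shared culture or day, the pairing is a hint from the data and not part of the design. A pseudocount of 1 ended the call of Pdk1 in C40 against PBS (0.0517). With only the 4 libraries of a comparison, 1 member was higher and 1 lower in C40 against PBS, 3 were higher and 0 lower in I60 against C40, 12 other genes were lower in I60 against PBS and 1 in I60 against C40, where 418 of all genes were lower. That fit ended calls of Gpi1 (0.0631), Pfkfb4 (0.0579) and Pdk1 (0.0707) in C40 against PBS, and of Pfkm (0.0634), Pfkfb4 (0.0893) and Egln3 (0.0579) in I60 against C40. It also called Hk2 (0.00111), Aldoa (0.0422), Gapdh (0.0175), Pgam1 (0.0298) and Ldha (0.0306) higher in I60 than in PBS.

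The direction turned only for members that were not called, when 1 library was left out. In C40 against PBS the log2 fold change ran from -0.37 to 0.12 for Hk1, -0.61 to 1.19 for Hk2, -0.22 to 0.42 for Pfkm, -0.14 to 0.49 for Aldoa, -0.00059 to 0.58 for Tpi1, -0.26 to 0.51 for Gapdh, -0.55 to 0.26 for Pgam1, -0.18 to 0.24 for Pkm, -0.13 to 0.27 for Ldha, -0.46 to 0.58 for Pfkfb3, -0.16 to 0.25 for Hif1a, -0.45 to 0.17 for Egln1, -1.09 to 0.09 for Egln3, -0.47 to 1.03 for Bnip3 and -0.96 to 1.40 for Ndrg1. In I60 against PBS it ran from -0.31 to 0.44 for Pfkl and -1.09 to 0.40 for Aldoc, and in I60 against C40 from -0.38 to 0.04 for Pkm, -0.52 to 0.10 for Egln1 and -1.86 to 0.49 for Ndrg1. The cause of these changes was not tested. Each tested member had at least 83 reads in every library, and 5 members had too few reads to test.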
